A study of Mus musculus with 8 samples.

Results

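Solute carriers are the membrane proteins that move amino acids, sugars, ions, nucleosides, vitamins and organic acids across the plasma membrane and the membranes of organelles. The genes described here have symbols that begin with Slc and a family number, without families 25, 30, 33, 35, 37 and 39. By that rule 212 of the 16458 transcripts in any of the 3 deposited tables were solute carriers, in 41 families. They were ordered by family number into amino acid carriers (families 1, 3, 6, 7 and 38; 48 genes), glucose carriers (family 2; 11 genes) and all other families (153 genes). These group names go by family number and not by the substrate of each gene. The creatine carrier Slc6a8 counts among the amino acid carriers, and the amino acid carrier Slc36a1 among the other families. All 212 were in the poly(A) table. The table of LIN28A-bound RNA held 75 of them among 7820 transcripts, the ribosome footprint table held 65 among 7936, and 63 were in all 3 tables. A further 12 were in the LIN28A and poly(A) tables, 2 were in the footprint and poly(A) tables, and 135 were in the poly(A) table alone. The rule goes by name, and 6 of its genes do not encode carriers: Slc3a1 and Slc3a2 are heavy chains that pair with amino acid carriers, Slc9a3r1 and Slc9a3r2 are scaffold proteins, Slc4a1ap is an adaptor, and Slc7a6os is named for its place beside Slc7a6.

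The 8 libraries came from A3-1, a single mouse embryonic stem cell line kept with serum and the cytokine LIF, and no other genotype was used. LIN28A, which pluripotent cells make in quantity, attaches to precursors of the let-7 miRNAs and to mRNAs. CLIP-seq, which sequences RNA crosslinked to a protein by ultraviolet light and recovered with an antibody, was done on cells without siRNA with 3 antibodies against LIN28A (the monoclonal antibodies 35L33G and 2J3 and a polyclonal one), 1 library each. Poly(A) RNA was sequenced from untreated cells and from cells given siRNA against luciferase (siLuc) or against Lin28a (siLin28a), and ribosome profiling, which sequences the fragments that ribosomes protect (footprints), covered siLuc and siLin28a, with 1 library per condition, 48 h after siRNA. A carrier that reaches a membrane is made by ribosomes on the endoplasmic reticulum, which thread each membrane span into the lipid as it is made. Stem cells take up glucose mainly through carriers of family 2 and amino acids through several families with overlapping substrates.

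CLIP libraries held 7698479 to 8027670 exon counts, poly(A) libraries 7475174 to 9605641 counts, and footprint libraries 7570209 (siLuc) and 5980673 (siLin28a) counts. Lin28a mRNA stood at 465 CPM (counts scaled to the library total) in untreated cells, 354 with siLuc and 118 with siLin28a. In untreated cells the 8 pluripotency markers lay between 179.7 and 874 RPKM, the CPM divided by the transcript length in kilobases. Their summed level was 5006 CPM in untreated cells, 5170 with siLuc and 6084 with siLin28a. The 8 markers of differentiated lineages summed to 5.07, 6.02 and 10.8 CPM in the same order. The 4 fibroblast markers in the table, which would mark feeder cells, summed to 31.9, 31.7 and 19.2 CPM, mostly from Thy1 (24.1, 23.3 and 10.6 CPM). The fibroblast collagen gene Col1a1 had 16, 10 and 12 counts. The part of these cells in any solute carrier value was not tested, and in bulk samples fewer cells of a type and less RNA per cell cannot be told apart.

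Solute carrier mRNAs covered a wide range of levels. Of the 212 genes, 59 had fewer than 10 counts in each poly(A) library, 110 reached 1 RPKM in all 3, and 43 reached 10 RPKM in all 3. Those 43 were 16 amino acid carriers, 3 glucose carriers and 24 genes of other families. The highest was the glucose carrier Slc2a3 (GLUT3; mm9 chromosome 6, 122677827 to 122692763), at 409 RPKM in untreated cells, 420.0 with siLuc and 568 with siLin28a. Slc2a1 (GLUT1; chromosome 4, 118781350 to 118809934) stood at 169, 218 and 337 RPKM. Both glucose carriers were highest in the siLin28a library.

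Among amino acid carriers the highest was Slc38a2 (chromosome 15, 96517823 to 96530129), which brings in small neutral amino acids together with sodium. It had 171, 149 and 115 RPKM in untreated, siLuc and siLin28a cells, its lowest value being that with siLin28a. Slc7a3 (chromosome X, 98274560 to 98280691), a carrier of arginine and lysine, had 157, 101 and 99.6 RPKM, so both siRNA libraries were below the untreated one. Slc3a2 (chromosome 19, 8781372 to 8797859), the heavy chain that carries light chains such as Slc7a5 to the cell surface, had 88.3, 97.5 and 64.5 RPKM. Its light chain partner Slc7a5, a carrier of large neutral amino acids, had 76.7, 77.2 and 59.8 RPKM. Slc29a1, which moves nucleosides, was at 166, 138 and 162 RPKM, and Slc20a1, which imports phosphate, at 90.0, 81.9 and 134. The lactate carriers Slc16a1 and Slc16a3 stood at 57.7 and 58.7 RPKM in untreated cells and at 44.6 and 103 with siLin28a.

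**Figure D1:**
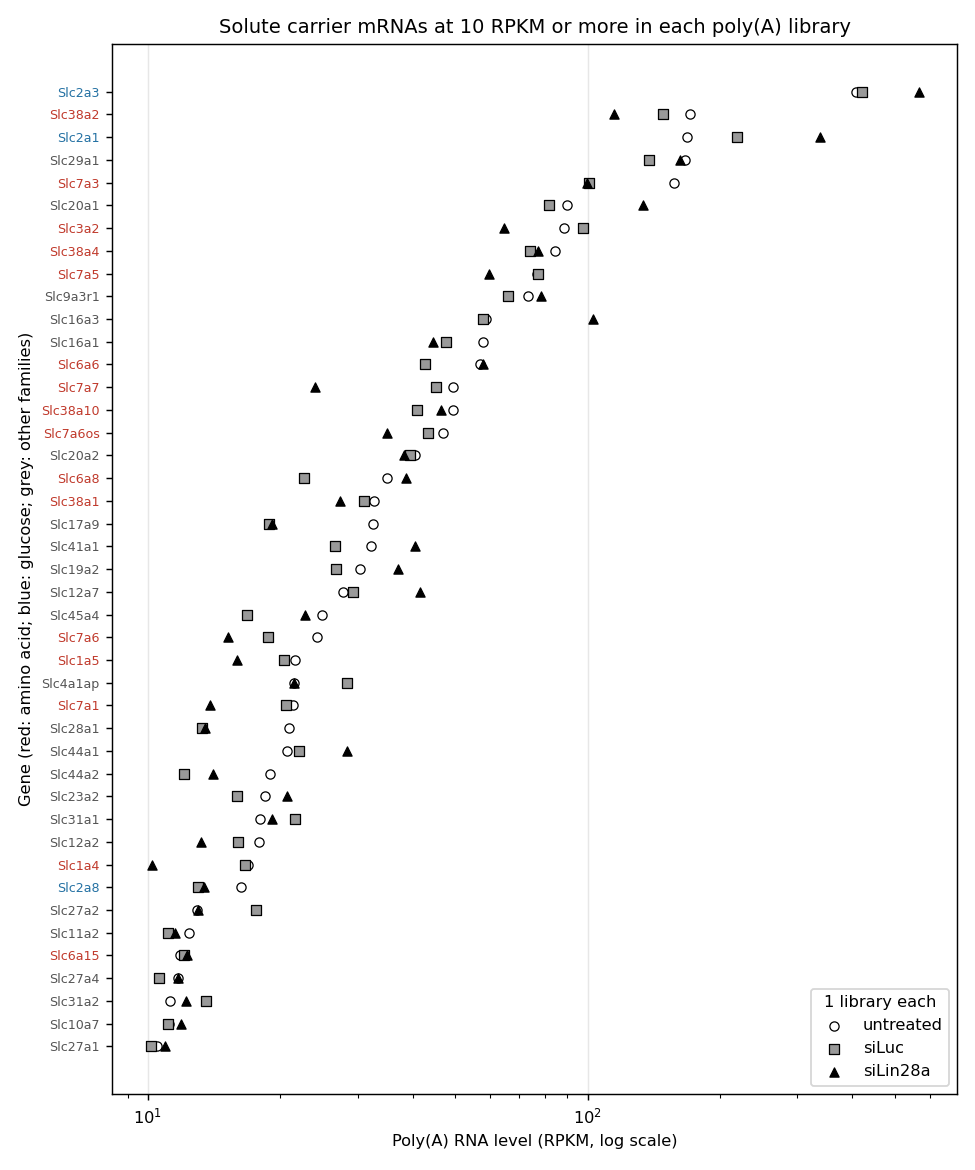
Poly(A) RNA level in RPKM (log axis) of the 43 solute carrier mRNAs that reached 10 RPKM in all 3 libraries; each marker is 1 library (untreated, siLuc, siLin28a), and gene names are coloured by group. Slc2a3 stands highest at 409, 420.0 and 568 RPKM, and Slc2a1 and Slc16a3 are among the genes whose siLin28a marker lies to the right.

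In LIN28A CLIP, more solute carrier transcripts were above their poly(A) level than below it. CLIP enrichment is the log2 ratio of exon counts in each CLIP library over those of untreated poly(A) RNA, scaled with trimmed-mean (TMM) factors, and is given as the mean ± SD over the 3 antibodies. With edgeR's quasi-likelihood test and a Benjamini-Hochberg adjusted p under 0.05, 42 of the 75 were enriched, 11 were depleted and 22 were not called. Over all 7820 transcripts 34.6% were enriched and 33.3% depleted. Transcripts weak in poly(A) RNA can pass a count filter through high CLIP counts alone. Among those with 200 or more untreated counts, 37 of 69 solute carriers were enriched and 11 depleted. Over all 7197 such transcripts the shares were 30.9% and 35.9%. The median of the 75 was 0.62 (all transcripts, -0.03) and their values ran from -1.98 to 2.70. Scaled by total counts, 31 were enriched and 18 depleted, with a median of 0.25, while the median of all transcripts moved to -0.40 and the called shares to 25.4% and 46.1%. No control immunoprecipitation was analysed here, so binding of LIN28A and other differences between CLIP and poly(A) libraries cannot be told apart. The labels do not say that the libraries came from separate cultures, so the p-values reflect the spread among these CLIP libraries alone, which can be technical.

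Amino acid carriers had the highest median of the 3 groups. Of 19 measured, 15 were enriched, 0 were depleted and 4 were not called, and their median was 1.25. Slc7a1 (chromosome 5, 149138986 to 149211480), the main carrier of cationic amino acids in many cells, had 5488, 5307 and 5713 counts with 35L33G, 2J3 and the polyclonal antibody, against 1420 in untreated poly(A) RNA. All 3 antibodies stood close together, and its enrichment was 2.50 ± 0.04 (SD, n = 3; edgeR adjusted p = 6.7e-15). Slc38a2 had 20483, 20769 and 20176 CLIP counts against 7347, an enrichment of 2.03 ± 0.04 (SD, n = 3; edgeR adjusted p = 4.1e-16). Its relatives Slc38a1 (1.96 ± 0.04) and Slc38a4 (1.61 ± 0.08) also import neutral amino acids with sodium, and Slc38a9 (1.44 ± 0.29), which senses arginine on the lysosome, was enriched with a wider spread. In family 38, 5 of 6 transcripts were enriched. The exception was Slc38a7, which exports glutamine from lysosomes, at -0.06 ± 0.24.

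Family 7, the light chains and cationic amino acid carriers, also had 5 of 6 enriched, but over a wide range. Slc7a6 followed Slc7a1 at 1.64 ± 0.08. Slc7a3 (0.62 ± 0.08), Slc7a7 (0.61 ± 0.12) and Slc7a5 (0.48 ± 0.08) were enriched by less, and the last 2 were not called after scaling by total counts (0.24 and 0.11). Slc7a6os, which is no carrier, was at 0.06 ± 0.14. The heavy chain Slc3a2 had 3864, 3664 and 3717 CLIP counts against 2300, an enrichment of 1.25 ± 0.06 (n = 3), which was above that of Slc7a5 with each antibody. In family 1, Slc1a4, a carrier of alanine and serine, was at 1.59 ± 0.17 and the glutamine carrier Slc1a5 at -0.05 ± 0.24. In family 6, the taurine carrier Slc6a6 was enriched (1.38 ± 0.10), and the creatine carrier Slc6a8 was not called (-0.31 ± 0.09, edgeR adjusted p = 0.0794).

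The 3 glucose carriers differed from each other. Slc2a3 had 25016, 26867 and 27381 CLIP counts against 14996 in poly(A) RNA, an enrichment of 1.36 ± 0.05 (SD, n = 3; edgeR adjusted p = 4.0e-14). Slc2a1 had 3153, 2528 and 2732 counts against 4017, an enrichment of 0.02 ± 0.17 (edgeR adjusted p = 0.81), and scaling by total counts put it at -0.34. Slc2a8, a carrier of intracellular membranes, was at -0.75 ± 0.23 and was not called (edgeR adjusted p = 0.0802). The most abundant glucose carrier mRNA was thus also the one that was enriched.

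Among other families 26 of 53 were enriched, 11 were depleted and 16 were not called, with a median of 0.51. The highest of all was Slc12a2, which brings sodium, potassium and chloride into cells, with 4707, 4572 and 5093 CLIP counts against 1078. Its enrichment was 2.70 ± 0.07 (SD, n = 3; edgeR adjusted p = 7.1e-15). Also high were the bicarbonate carrier Slc4a7 (2.27 ± 0.08), the sulfate carrier Slc26a2 (2.27 ± 0.04) and the fatty acid transport protein Slc27a2 (1.89 ± 0.23). The lactate carriers were split, with Slc16a1 enriched (1.77 ± 0.12) and Slc16a3 depleted (-0.79 ± 0.18). Slc29a1, high as an mRNA, was depleted (-0.71 ± 0.09, edgeR adjusted p = 1.3e-05).

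The lowest values belonged to a scaffold, to vesicle and fatty acid carriers and to proton exchangers. Slc9a3r1 (NHERF1; chromosome 11, 115024655 to 115042492), a scaffold beneath the plasma membrane, had 212, 244 and 222 CLIP counts against 1305, an enrichment of -1.98 ± 0.10 (SD, n = 3; edgeR adjusted p = 2.1e-08). Slc17a9, which loads nucleotides into vesicles, had 126, 119 and 113 counts against 660 and was at -1.91 ± 0.10. Slc27a1, a fatty acid transport protein, was at -1.86 ± 0.28, and the scaffold Slc9a3r2 (75, 31 and 40 counts against 228) at -1.77 ± 0.66, where the antibodies differed most. Family 9 was the one family of 4 or more measured genes with more depleted than enriched members, with 4 of 6 depleted and a median of -1.31. Of these 4, 2 are the scaffolds. Without the 5 measured genes that do not encode carriers, 41 of 70 were enriched and 9 depleted.

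**Figure D2:**
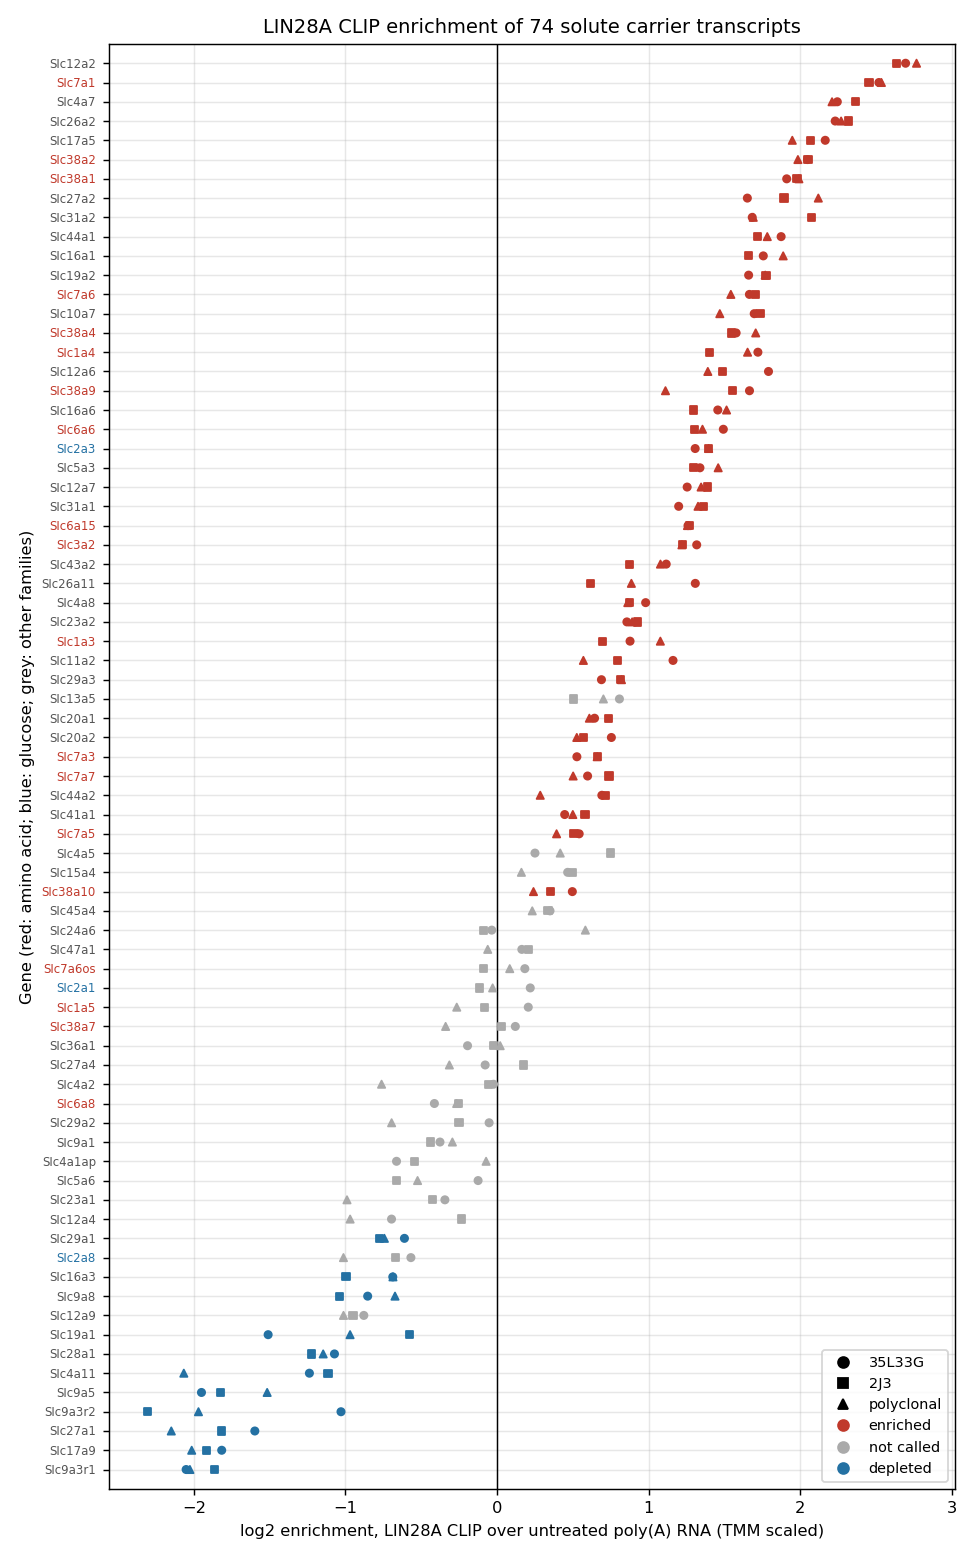
CLIP enrichment over untreated poly(A) RNA (log2, TMM scaled) of 74 solute carrier transcripts; each gene has 1 marker per antibody, coloured by the edgeR call, and gene names are coloured by group. Mean values run from -1.98 (Slc9a3r1) to 2.70 (Slc12a2), and no amino acid carrier is called depleted.

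Where the CLIP reads fell within these transcripts was described by the share of 3′ UTR counts among coding plus 3′ UTR counts, beside the same share in the poly(A) column that the CLIP table holds, which names no condition. In 71 solute carriers with 50 or more such counts, the CLIP share had a median of 51.5% and the poly(A) share a median of 32.3%. Over all 7300 such transcripts the medians were 30.4% and 26.9%. The CLIP share was above the poly(A) share in 59 of the 71, against 57.6% of all transcripts. It was 20 points or more above in 17 of the 71, against 15.1% of all transcripts, and 20 points or more below in 0, against 3.33%.

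Slc7a3 stood out in this measure. Its CLIP reads were 67.8%, 71.1% and 73.1% in the 3′ UTR with 35L33G, 2J3 and the polyclonal antibody (70.7% ± 2.66, SD, n = 3), against 8.51% of its poly(A) reads. The 3′ UTR held 2270, 2624 and 2752 CLIP counts against 262 in poly(A) RNA, while the coding sequence held 1078, 1066 and 1015 against 2818. On the log2 scale its 3′ UTR was enriched by 3.79 ± 0.13 and its coding sequence was at -0.91 ± 0.07, so its modest whole-transcript value of 0.62 joined a high and a low region. The sulfate and chloride carrier Slc26a11 had 88.9% ± 1.75 of its CLIP reads in the 3′ UTR against 19.3% of poly(A) reads. These shares rest on few counts. Its coding sequence held 25, 13 and 22 CLIP counts, and its poly(A) reads were 92 coding and 22 3′ UTR counts. The SD over antibodies does not cover the error of those poly(A) counts.

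Several abundant carriers were shifted the same way by less. Slc38a4 had 68.3% ± 0.53 (SD, n = 3) of CLIP reads in the 3′ UTR against 36.2% of poly(A) reads, and Slc16a1 had 65.0% ± 1.54 against 32.6%. Slc7a6 (76.5% ± 1.39 against 51.0%) and Slc38a2 (62.7% ± 1.99 against 43.2%) were shifted too. The scaffold Slc9a3r1, the most depleted transcript, had 65.6% ± 9.52 against 27.0%. Slc3a2 was one of the 12 genes that lay the other way, with 2.42% ± 0.67 of its CLIP reads in the 3′ UTR against 9.12% of poly(A) reads and a coding sequence enriched by 1.45 on the log2 scale. The heavy chain was therefore read mainly in its coding sequence and Slc7a3 mainly in its 3′ UTR.

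**Figure D3:**
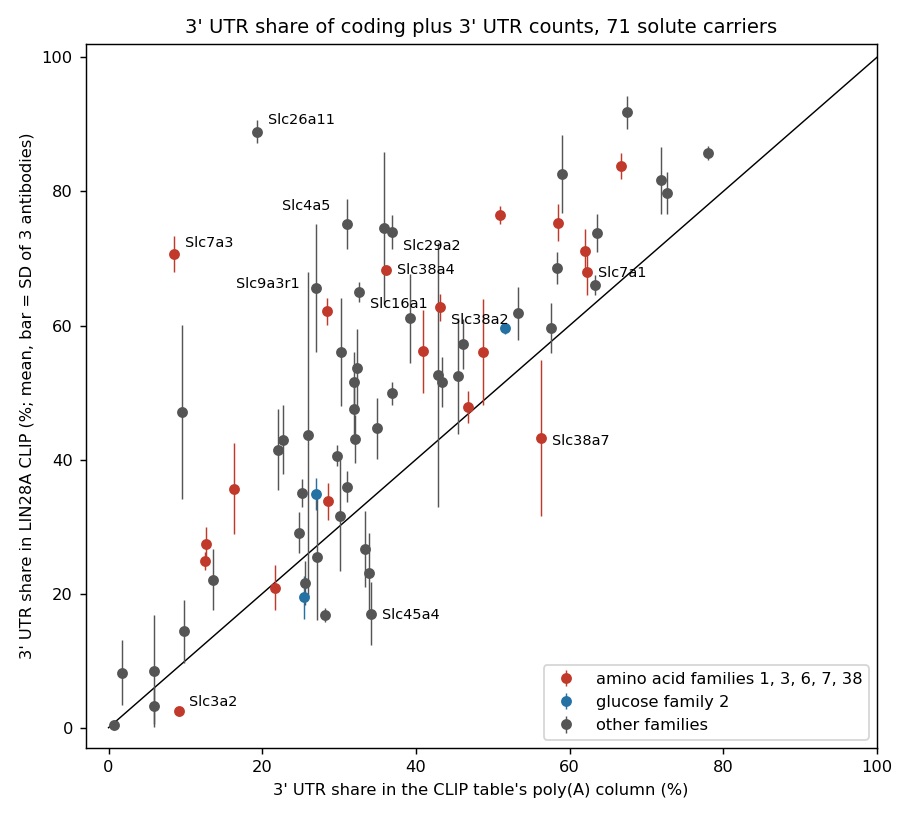
Share of 3′ UTR counts among coding plus 3′ UTR counts (percent) in LIN28A CLIP (y axis, mean and SD of 3 antibodies) against the poly(A) reads listed beside them (x axis) for 71 solute carriers; the diagonal marks equal shares. Points above the diagonal are the 59 genes with a higher CLIP share, with Slc7a3 (70.7% against 8.51%) at the upper left and Slc3a2 (2.42% against 9.12%) at the lower left.

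The siRNA comparisons rest on 1 library per condition. They have no replicate check and no p-value, and their 95% intervals cover counting error only. Changes are log2 ratios of CPM with 0.5 counts added, and a gene is counted as higher or lower when it was past 1.5-fold with 200 or more counts over both libraries. The comparisons of siLuc with untreated cells and of siLin28a with siLuc share the siLuc library.

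With siLuc, 14 of 80 solute carriers were lower than in untreated cells and 0 were higher. Over 8743 transcripts 4.46% were lower and 3.31% higher. The median of the 80 was -0.18 (all transcripts, -0.01), and 61 of the 80 were below 0, against 50.9% of all transcripts. The folate carrier Slc19a1 was lowest, at 35.7 CPM in untreated cells, 13.6 with siLuc and 21.0 with siLin28a, a log2 ratio of -1.38. The lysosomal nucleoside carrier Slc29a3 went from 37.2 to 17.7 CPM (-1.07) and was at 30.8 CPM with siLin28a. Slc12a9 (-0.88), the vitamin carrier Slc5a6 (-0.87), Slc17a9 (-0.78) and Slc5a11 (-0.76) came next. Slc7a3 was at 373 CPM in untreated cells and 239 with siLuc (-0.64). At the other end were Slc27a2 (0.44), Slc4a1ap (0.40) and Slc2a1 (0.37), none of them past 1.5-fold.

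With siLin28a, 14 of 80 solute carriers were higher than with siLuc and 6 were lower, against 7.62% and 4.5% of 8859 transcripts. The median was 0.04 (all transcripts, -0.00). Set against untreated cells, 6 of 83 were higher and 19 lower, against 7.43% and 5.07% of 9056 transcripts, with a median of -0.12, so the split depends on which control library is used. The peptide carrier Slc15a1 was at 8.85, 9.23 and 23.0 CPM, 1.31 (0.92 to 1.70) over siLuc, and both control libraries were alike. The lactate carrier Slc16a3 was at 146, 144 and 257 CPM, a log2 ratio of 0.83 (0.73 to 0.94).

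Both abundant glucose carriers were higher with siLin28a than in either control. Slc2a1 was at 434, 561 and 867 CPM in untreated, siLuc and siLin28a cells, a log2 ratio of 0.63 over siLuc, and it was already higher with siLuc than in untreated cells. Slc2a3 was at 1619, 1663 and 2247 CPM, a log2 ratio of 0.43, short of 1.5-fold. Slc2a8, at 34.0, 27.0 and 27.9 CPM, had a ratio of 0.05. The phosphate carrier Slc20a1 was at 297, 270.5 and 442 CPM, a log2 ratio of 0.71.

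Amino acid carriers as a group tended the other way, with 2 of 20 higher, 4 lower and a median of -0.31 for siLin28a over siLuc. The families differed. All genes with enough counts in families 1 (3 genes), 3 (1 gene) and 7 (6 genes) were below 0, against 50.2% of all transcripts. Those of family 7 included the non-carrier Slc7a6os, and Slc7a3 at -0.01. In family 1, Slc1a1 fell short of the count limit and went the other way. It had 46, 29 and 112 counts in untreated, siLuc and siLin28a cells, at 1.57 (0.98 to 2.15) over siLuc. Family 38 had 3 genes above 0 and 3 below, and all 4 of family 6 were above 0, 2 of them past 1.5-fold. Slc7a7, a light chain for cationic amino acids, was at 113, 103 and 54.7 CPM (-0.92). The glutamate carrier Slc1a3 was at -0.81 and Slc1a4, at 66.3, 65.4 and 40.2 CPM, was at -0.70. Slc3a2 was at 248, 274 and 181 CPM (-0.60), and Slc7a1 (-0.57), Slc38a2 (-0.37), Slc7a5 (-0.37) and Slc1a5 (-0.36) were lower by less. Outside the amino acid families the lowest was Slc47a1, which exports organic cations, at 33.5, 25.8 and 9.89 CPM (-1.38, interval -1.73 to -1.03). The vitamin C carrier Slc23a1 was at -0.78.

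Several amino acid carriers belong to the amino acid response, in which the transcription factor ATF4 raises genes for amino acid uptake and synthesis when amino acids run short. A list of 9 such carriers (Slc1a4, Slc1a5, Slc3a2, Slc6a9, Slc7a1, Slc7a3, Slc7a5, Slc7a11 and Slc38a2) was described as a group. With siLin28a all 7 that had enough counts were below siLuc, 2 of them past 1.5-fold and 6 with an interval below 0, and the median was -0.37. Over all transcripts 50.2% were below 0, 4.5% past 1.5-fold lower and 30.6% had an interval below 0. Of the 20 genes of amino acid families, these 7 included, 13 were below 0 and 12 had an interval below 0. The lowest of the 20, Slc7a7 (-0.92) and Slc1a3 (-0.81), are not on the list. The list was chosen with earlier results of these data known. Against untreated cells all 7 were again below 0 (all transcripts, 52.2%), 3 of them past 1.5-fold (5.07%). Slc7a3 was the member near 0 against siLuc (-0.01), since both siRNA libraries were alike (239 and 236 CPM). The cystine carrier Slc7a11 had 4, 4 and 2 counts and the glycine carrier Slc6a9 had 95, 81 and 46. Other genes of the response varied in how far the controls lay apart. The glutathione-degrading enzyme Chac1 had 85 counts in untreated cells, 240 with siLuc and 57 with siLin28a, and the kinase-like regulator Trib3 had 285, 505 and 204. Atf4 itself was at 94.8, 165 and 109 RPKM. Asns was at 395, 483 and 447 CPM, so its controls differed by less. The part of the siLuc library in the lower values of the carriers was not tested, beyond the values against untreated cells.

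ATF4 works with C/EBP proteins at an element with the letters TGATGNAA, and the matches in the listed carriers and in Chac1, Trib3 and Asns are shown with their surroundings. For Ddit3, also looked up, no match was listed. That does not tell a missing window from a window without a match. Windows from 250 bases before to 50 after the start of each gene were searched on both strands (reverse complement TTNCATCA). The sequences are from RefSeq, build GRCm38.p6, 5′ to 3′ in the direction of the gene, with the matched letters in capitals. A window was found for 160 of the 212 solute carriers.
Slc1a4 (chr11:20332699-20332728, minus strand): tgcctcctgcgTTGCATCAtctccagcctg
Slc7a11, first match (chr3:50443661-50443690, minus strand): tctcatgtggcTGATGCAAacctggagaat
Slc7a11, second match (chr3:50443642-50443671, minus strand): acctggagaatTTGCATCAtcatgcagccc
Chac1 (chr2:119351038-119351067, plus strand): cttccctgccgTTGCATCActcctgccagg
Trib3 (chr2:152344028-152344057, minus strand): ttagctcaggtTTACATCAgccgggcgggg
Asns (chr6:7693214-7693243, minus strand): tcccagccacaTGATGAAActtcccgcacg
Of the 6 listed carriers with a window, Slc1a4 and Slc7a11 held these letters. Over all windows of this length 3.97% held them, over all genes with a window 4.51%, and over the 160 solute carriers 3.75% (6 genes). Slc1a4 was expressed in all 3 libraries and was among the 2 listed carriers past 1.5-fold lower, whereas Slc7a11 was almost unread. A match is a description of these letters and not a bound site.

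In ribosome footprints, solute carriers were higher with siLin28a, against the trend of the library. Of 62 with 200 or more footprint counts, 42 were past 1.5-fold higher and 2 lower, whereas 14.4% of 6323 transcripts were higher and 26.9% lower. The median of the 62 was 0.69 and that of all transcripts -0.21. With TMM factors in place of library totals 52 were higher, 0 were lower and the median was 0.92. The amino acid carrier Slc36a1 of lysosomes was at 27.3 CPM with siLuc and 86.9 with siLin28a (log2 ratio 1.67), and Slc16a3 at 302 and 911 CPM (1.59). The creatine carrier Slc6a8 was at 27.2 and 78.9 CPM (1.53), and the Golgi exchanger Slc9a8 at 23.0 and 64.7 CPM (1.49).

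Footprints of both abundant glucose carriers were more than 1.5-fold higher with siLin28a. Slc2a3 had 18122 footprint counts with siLuc and 36922 with siLin28a, in the smaller library, a log2 ratio of 1.37. Slc2a1 had 10516 and 19733 counts, a ratio of 1.25. Over all 6323 transcripts, whatever their mRNA ratio, 26.7% had a footprint interval above 0. Of 11 genes of amino acid families with an mRNA ratio below 0 and enough footprints, 9 had such an interval. Slc7a7, with the lowest mRNA ratio of them, had footprints at 165 and 172 CPM (0.06), an interval that includes 0, and the non-carrier Slc7a6os was at -0.28. Among the 9, Slc3a2 was at 874 and 1208 CPM, Slc38a2 at 1209.9 and 1567 CPM, and Slc1a4 at 58.7 and 82.4 CPM. The lowest footprint ratios were those of the scaffold Slc9a3r1 (159 and 97.6 CPM, -0.70) and the adaptor Slc4a1ap (63.5 and 41.3 CPM, -0.62), neither of them a carrier. Next came the fatty acid transport protein Slc27a2, at 54.2 and 43.8 CPM (-0.31, interval -0.53 to -0.08).

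**Figure D4:**
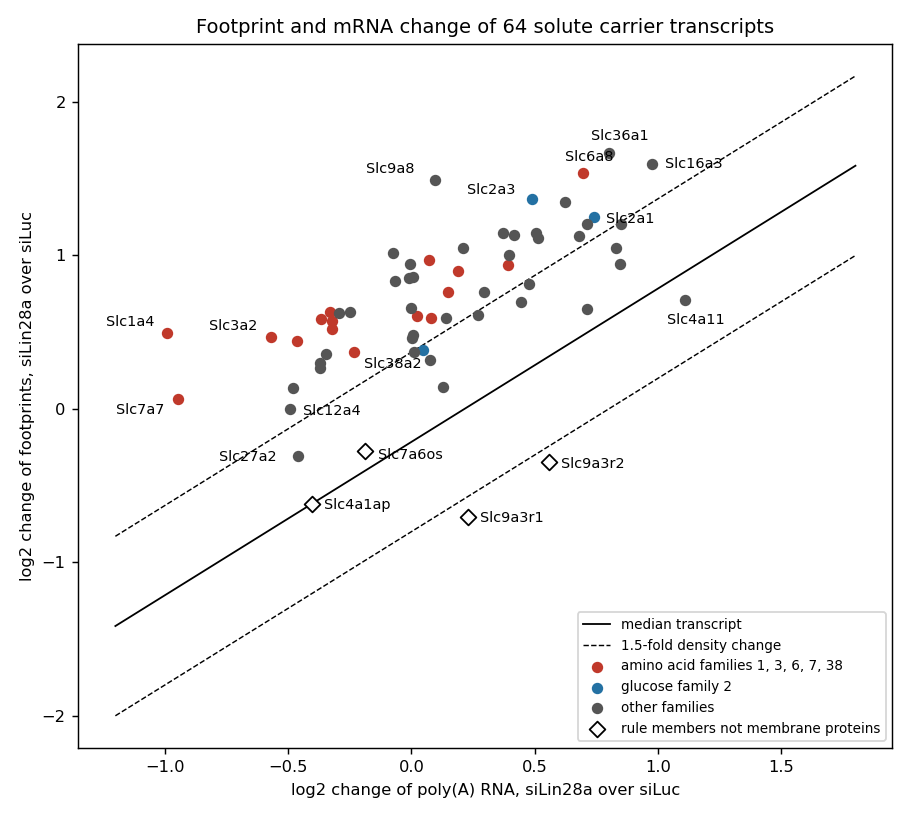
log2 change with siLin28a over siLuc in footprints (y axis) against poly(A) RNA as tallied in the footprint table (x axis) for 64 solute carrier transcripts, 1 library per condition, coloured by group; the solid line is the density of the median transcript, dashed lines mark 1.5-fold, and diamonds are the 4 members that are not membrane proteins. Most points lie above 0 on the y axis whichever side of 0 they take on the x axis, with Slc2a3 (footprints 1.37), Slc2a1 (1.25) and Slc16a3 (1.59) to the right and Slc9a3r1 (-0.70) at the bottom.

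Ribosome density joins both readouts: it is the log2 footprint change minus the log2 mRNA change in the footprint table, centred on the median transcript, which lay at -0.22 before centring. It was 1.5-fold or more higher with siLin28a in 48 of 65 solute carriers and lower in 2, against 18.6% and 17% of 7799 transcripts with 50 or more counts in each assay. The median was 0.83, and 57 of the 65 had an interval above 0, against 29.2% of all transcripts. In amino acid families 16 of 17 were higher, the exception being Slc7a6os (0.13). In the glucose family 2 of 3 were higher, and in other families 30 of 45 were higher and 2 lower.

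The highest density change was that of Slc1a4 at 1.70 (1.35 to 2.05), followed by Slc9a8 at 1.61 (1.20 to 2.02) and Slc26a2 at 1.31. With siLuc and siLin28a, Slc1a4 had 230 and 148 poly(A) counts in the footprint table but 489 and 386 in the poly(A) table. Its interval does not cover that difference in tally. Slc3a2 was at 1.25 (1.15 to 1.36) and its partners Slc7a7 and Slc7a5 at 1.22 and 1.11, so heavy and light chains were alike. Slc38a1 (1.18), Slc1a5 (1.17), Slc7a1 (1.06), Slc38a2 (0.82) and Slc7a3 (0.73) were all past 1.5-fold. Slc2a3 was at 1.09 (1.04 to 1.15) and Slc2a1 at 0.72, while Slc2a8 was at 0.55 and not past the limit. The list of carriers under ATF4 had 7 of 7 measured members higher, with a median of 1.11. For these carriers mRNA and density lay on opposite sides of 0. Density is a difference that contains the mRNA change with its sign turned, so the pair is not independent.

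The members that are not membrane proteins had lower values. The scaffolds Slc9a3r1 (-0.72, -0.91 to -0.52) and Slc9a3r2 (-0.69, -1.27 to -0.11) were the 2 lower ones, and Slc4a1ap (-0.00) and Slc7a6os (0.13) were near the median transcript. Without these 4, 48 of 61 were higher, 0 were lower and the median was 0.85. Low values among true carriers were those of Slc4a11 (-0.18), a transporter of the cell membrane, and Slc45a4 (0.15). The contrast of 4 genes with 61 was seen in the values and has no test.

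**Figure D5:**
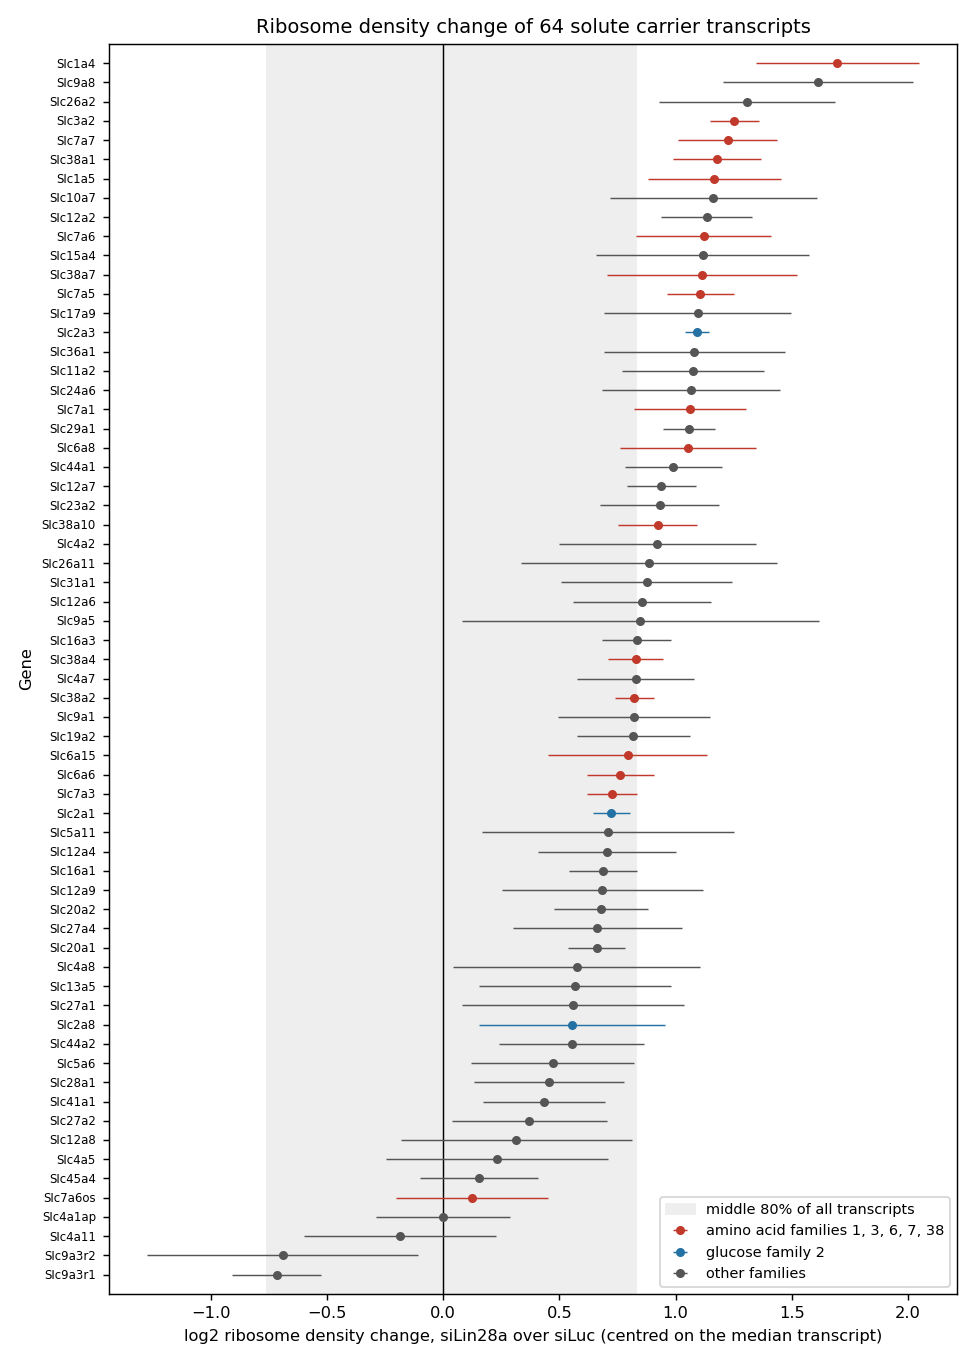
Ribosome density change (log2, siLin28a over siLuc, centred on the median transcript) of 64 solute carriers in order of value; bars are 95% counting intervals and the shaded band spans the lower to the upper decile of all transcripts. Slc1a4 (1.70) is at the top, and the scaffolds Slc9a3r1 (-0.72) and Slc9a3r2 (-0.69) are at the bottom, apart from the rest.

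Density was also read by CLIP call. Of 34 enriched solute carriers in both tables, 30 had 1.5-fold or more higher density (88.2%; median 0.90), as had 12 of 19 that were not called (63.2%) and 5 of 10 that were depleted. Over all transcripts the shares higher were 37.7% for enriched, 14.7% for not called and 4.29% for depleted ones. The 5 depleted carriers with higher density included Slc9a8 (CLIP enrichment -0.85, density 1.61), Slc17a9 (-1.91, density 1.10), Slc29a1 (-0.71, density 1.06) and Slc16a3 (-0.79, density 0.83). The 2 depleted genes with lower density were the scaffolds. Across 63 solute carriers the rank correlation of enrichment with density change was 0.37, and across 7111 transcripts 0.48. Both are descriptions over genes that share libraries. Across the 75, enrichment had a rank correlation of 0.45 with transcript length and 0.05 with coding length, against 0.20 and -0.00 over all 7820 transcripts.

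In the siLuc library most carriers had more footprints per mRNA read than other transcripts. In 60 of 65 the density was above that of the median transcript, and the median of the 65 was 1.16 on the log2 scale. Slc38a4 was highest at 2.57, then Slc2a1 at 2.42 and Slc7a3 at 2.27. The lowest were the exchanger Slc9a5 (-1.10), Slc6a8 (-0.67) and Slc27a1 (-0.61). As a percentage of the poly(A) table's count, the footprint table's poly(A) tally tracked the coding share of poly(A) reads. The rank correlation was 0.92 over 52 solute carriers and 0.77 over 6414 transcripts. Over these genes the tally percentage had a median of 62.3% for solute carriers and 77.9% for all transcripts. The part of this difference in the siLuc densities was not tested. How that tally was made is not given in the sources used here. In 9 solute carriers, among them Slc1a4, Slc7a1, Slc38a1, Slc6a6 and Slc36a1, the ratio of both tables' tallies was more than 2-fold off the median ratio in at least 1 of the siRNA libraries. Without these 9, 40 were higher and 2 lower in density with siLin28a.

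Genes that work with carriers were read from a list of their own. The list joins amino acid response genes, carrier chaperones, sodium pump subunits, and kinases and ligases that act on carriers. Of 15 measured in CLIP, 9 were enriched and 4 depleted (all transcripts, 34.6% and 33.3%). The enriched ones included the lactate carrier chaperones Emb (2.11 ± 0.06, SD, n = 3) and Bsg (1.35 ± 0.05) and the sodium pump beta subunits Atp1b3 (2.07 ± 0.13) and Atp1b1 (1.84 ± 0.07). These membrane proteins had density changes of 1.27, 0.98, 1.07 and 0.56 in the same order. Genes of the list that encode no membrane protein lay on both sides. Chac1 had the highest enrichment of the list (3.06 ± 0.18), but on only 85 untreated poly(A) counts, against 547, 435 and 482 in CLIP. Its SD does not cover the error of that single low poly(A) count. The ubiquitin ligase Nedd4l (1.08 ± 0.05) and Atf4 (0.79 ± 0.18) were enriched, with density changes of 0.05 for Nedd4l and 0.56 for Atf4. Asns, which makes asparagine, was depleted in CLIP (-0.91 ± 0.03) with a density change of -0.26, and the stress protein Sesn2 was depleted (-2.02 ± 0.19) with one of 0.20. In all, 5 of 14 listed genes with a density value were past 1.5-fold higher, against 18.6% of all transcripts.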

How the data were processed

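LIN28A CLIP (3 libraries), poly(A) RNA (3) and ribosome footprints (2) were measured in A3-1 cells. The values are whole read counts per RefSeq transcript as deposited by the authors. GSNAP, bedtools and mm9 are named without roles per the submitters' processing notes, and neither versions nor the way reads were counted is given in the sources used here. The CLIP table also holds coding, 3′ UTR and length columns. The footprint table lists transcripts with at least 80 poly(A) counts. The authors' fold and p-value columns and other values, 21 per-sample columns in all, were not used.

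CLIP was tested against untreated poly(A) RNA by the quasi-likelihood test of edgeR 4.0.16 in R 4.3.3 (filterByExpr, TMM), adjusted over all transcripts of the table. The spread comes from the 3 antibodies, so the lone poly(A) library is taken to vary as they do. DESeq2 1.42.0, other scalings, filters, inputs and tallies, and leaving out each antibody were alternatives. The edgeR step was tested on simulated data. RPKM used exon length. Promoter windows are RefSeq's.

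Named genes are the highest and lowest of each group and family, all glucose carriers, and the listed genes. Slc20a1, Slc26a11 and others named for their level, 3′ UTR share or CLIP call were chosen after their values were seen. A few genes are counted but not reported here by name. Members and lists were chosen with earlier results of these data known.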

Additional observations from a re-analysis of the deposited data

How the results depend on the processing

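Leaving out each antibody in turn gave 39 to 42 enriched and 10 to 12 depleted solute carriers, a median enrichment of 0.59 to 0.66 and a median 3′ UTR share of 50.03% to 50.7%. Total counts in place of TMM gave 18 depleted and a median of 0.25, put Slc2a1 at -0.34, and left Slc7a5 and Slc7a7 uncalled; poly(A) reads from the CLIP table as input gave a median of 0.67. Among the recomputed enrichments of named genes, 290 kept direction and call, 9 lost it, 8 gained it and 1 turned sign, and the cause was not tested. With 50 counts in place of 200, which adds weakly read genes, siLin28a over siLuc gave 24 higher and 13 lower, siLuc over untreated gave 1 higher and 23 lower, and the footprint median was 0.66. Untreated cells as the baseline, chosen after seeing the data, gave 6 higher, 19 lower and a median of -0.12. TMM for footprints gave 0 lower and a median of 0.92. Density had a median of 0.61 without centring and 0.89 with the poly(A) table's counts, and 1 lower gene at 200 counts. All other counts stayed within 1.5-fold and all other medians within the spread between antibodies or the counting error. No paired analysis was possible because the labels carry no replicate numbers. With 1 library per siRNA condition, no error beyond counting is known.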
